A study of Mus musculus with 2 samples.

Results

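The genes described here are 31 genes of sterol and fatty acid synthesis, 25 of the sterol pathway and 6 fatty acid enzymes, out of 31053 genes listed in the files. They were chosen by gene symbol, with an earlier result of the same libraries known, in which a shorter list of such genes had higher levels after THC in epithelial-like and fibroblast-like cells. The differences between the libraries in the values below are therefore given as a description and carry no test. Both libraries are droplet single-cell RNA sequencing, made with a 5' gene expression kit, of colon from wild-type C57BL/6 mice. The mice of 1 library received Δ9-tetrahydrocannabinol (THC, the main psychoactive compound of cannabis) at 10 mg/kg, and those of the other received the vehicle control. Both preparations were loosened with EDTA, digested with collagenase D, DNAse and Dispase, and enriched on a Percoll gradient for cells of the lamina propria, the connective tissue layer under the epithelium. The labels give neither the number, sex and age of the mice nor the dosing scheme, and with 1 library per group a difference between libraries has no replicate check.

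Cells make cholesterol from acetyl-CoA through mevalonate, isoprenoid units, squalene and lanosterol. When sterol in the membrane of the endoplasmic reticulum is low, the escort protein SCAP carries the transcription factor SREBP-2, the product of Srebf2, to the Golgi for cleavage, and the freed factor switches on most genes of the pathway. INSIG proteins hold SCAP back when sterol is plentiful. Srebf1 encodes SREBP-1, which acts more on fatty acid synthesis, where ACLY supplies acetyl-CoA, ACACA makes malonyl-CoA, FASN builds palmitate, ELOVL6 lengthens it, and the SCD enzymes add a double bond. The gut epithelium both absorbs sterol from the lumen and makes its own.

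Genes of the pathway are known to carry binding sites for SREBP together with sites for NF-Y (the CCAAT box) and Sp1 (the GC box) close to their start. RefSeq promoter windows, from 250 bases before to 50 after each start on build GRCm38.p6, were matched to 25 of the 31 genes by symbol. Fdps, Fdft1, Sqle, Stard4, Scd1 and Scd2 had no entry. A CCAAT box (CCAAT, searched on both strands, so that ATTGG on the printed strand counts) stood in the windows of 21 of the 25, or 84%, against 41.1% of 27025 genes in the table. It stood in 19 of 21 sterol pathway genes and in 2 of 4 fatty acid genes, Acly and Fasn. A GC box (GGGCGG, both strands) stood in 21 of the 25, against 38.2% of all genes, and an E-box (CACGTG, its own reverse complement) in 5 of the 25, against 8.09%. The sterol element core TCACNCCAC (both strands) was found in 1 of the 25, Hmgcs1, against 1.44% of all genes. The shorter core CACNCCAC, which includes every site of the longer one, was found in 3, Acat2, Hmgcs1 and Insig1, against 7.12%.

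The 6 windows below, 5′ to 3′ in the direction of transcription, belong to genes on which the comparison of classes turns. Hmgcs1, Mvd, Idi1 and Cyp51 had opposite library ratios in the epithelial-like and goblet-like cells, Insig1 encodes the feedback sensor, and Lss had the highest ratio of all 31 in the epithelial-like cells. Capitals mark the CCAAT box on either strand and, in Hmgcs1, the sterol element core.
Hmgcs1 (chr13:119690101-119690400, plus strand): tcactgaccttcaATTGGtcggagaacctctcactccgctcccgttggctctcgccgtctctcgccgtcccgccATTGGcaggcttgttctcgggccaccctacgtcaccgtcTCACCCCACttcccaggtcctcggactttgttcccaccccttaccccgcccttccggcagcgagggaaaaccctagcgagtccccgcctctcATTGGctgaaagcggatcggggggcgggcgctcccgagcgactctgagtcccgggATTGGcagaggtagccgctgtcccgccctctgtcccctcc
Mvd (chr8:122443373-122443672, minus strand): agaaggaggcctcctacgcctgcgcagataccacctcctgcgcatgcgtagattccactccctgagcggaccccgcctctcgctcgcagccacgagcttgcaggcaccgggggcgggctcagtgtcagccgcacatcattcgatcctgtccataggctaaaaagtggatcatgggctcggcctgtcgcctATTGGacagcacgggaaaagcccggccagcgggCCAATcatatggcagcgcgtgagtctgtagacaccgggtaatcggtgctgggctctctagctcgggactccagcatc
Idi1 (chr13:8885356-8885655, plus strand): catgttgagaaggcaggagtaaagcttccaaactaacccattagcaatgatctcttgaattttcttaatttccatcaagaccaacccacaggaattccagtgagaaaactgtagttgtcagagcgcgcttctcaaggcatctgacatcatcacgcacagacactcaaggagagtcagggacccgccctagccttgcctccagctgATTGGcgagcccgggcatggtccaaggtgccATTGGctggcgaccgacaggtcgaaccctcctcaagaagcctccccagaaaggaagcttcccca
Cyp51 (chr5:4104648-4104947, minus strand): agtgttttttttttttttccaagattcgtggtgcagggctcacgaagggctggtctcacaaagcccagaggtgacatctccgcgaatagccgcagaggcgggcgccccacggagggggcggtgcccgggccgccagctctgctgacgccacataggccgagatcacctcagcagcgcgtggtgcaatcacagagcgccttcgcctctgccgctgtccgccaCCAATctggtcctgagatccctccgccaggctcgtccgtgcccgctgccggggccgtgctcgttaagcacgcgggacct
Insig1 (chr5:28071162-28071461, plus strand): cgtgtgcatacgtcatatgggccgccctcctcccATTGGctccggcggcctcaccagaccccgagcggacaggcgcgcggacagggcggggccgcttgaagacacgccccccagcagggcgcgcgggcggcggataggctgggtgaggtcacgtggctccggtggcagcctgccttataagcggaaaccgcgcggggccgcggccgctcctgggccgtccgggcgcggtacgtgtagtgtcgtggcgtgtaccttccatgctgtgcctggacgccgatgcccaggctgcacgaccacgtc
Lss (chr10:76531355-76531654, plus strand): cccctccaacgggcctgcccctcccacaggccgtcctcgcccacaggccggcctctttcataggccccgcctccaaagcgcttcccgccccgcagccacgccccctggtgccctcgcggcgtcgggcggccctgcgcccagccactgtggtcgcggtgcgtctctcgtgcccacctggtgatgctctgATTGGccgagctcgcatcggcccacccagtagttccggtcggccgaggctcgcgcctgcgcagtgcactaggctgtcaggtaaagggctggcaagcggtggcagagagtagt
Hmgcs1 held 4 CCAAT boxes and the sterol element core 137 bases upstream of the start, while Mvd and Idi1 held 2 boxes each and Cyp51, Insig1 and Lss 1 each. Such a match is a description of the letters in the window and not a site shown to be bound.

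The deposited THC matrix was unfiltered, with 106628 barcodes holding a unique molecular identifier (UMI, which counts 1 RNA molecule), and the vehicle matrix held only barcodes with at least 502 UMIs. The same filter was therefore run on both, at least 1000 UMIs, at least 200 genes and under 10% mitochondrial UMIs, which left 395 THC and 629 vehicle cells with a median of 8529 and 7102 UMIs. No barcode was shared between the kept cells of the libraries. Cells were clustered without the 31 genes and without 51 related lipid genes, and clusters were named from marker genes. This gave 85 THC and 102 vehicle epithelial-like cells, 41 and 70 goblet-like, 93 and 156 fibroblast-like, 40 and 47 smooth muscle-like, 37 and 69 B-like and 23 and 31 T-like cells. Levels are given as CPM, the UMIs of a gene summed over the cells of a class per 1000000 UMIs of those cells. A molecule that was captured gives 1 count at its 5′ end whatever its length. Ratios are log2 of THC over vehicle CPM, and the ranges after them are 95% intervals that cover counting error only.

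Among the 6 classes with 20 or more cells per library, the sterol pathway was most abundant in the epithelial-like and goblet-like cells. Its 25 genes summed to 1581 CPM in THC and 1160 CPM in vehicle epithelial-like cells, and to 1278 and 1626 CPM in goblet-like cells. Fibroblast-like cells held 917 and 711 CPM, B-like cells 652 and 799 CPM, T-like cells 771 and 866 CPM, and macrophage-like cells 728 and 727 CPM. Smooth muscle-like cells held 442 CPM in THC and 468 CPM in vehicle, the lowest of these classes in both libraries. In the 4 THC cells of the innate lymphoid and NK-like class the sum was 1623 CPM on 30 UMIs, and 821 CPM in the 9 vehicle cells. Over the same 6 classes, 18 of the 31 genes (13 of the sterol pathway and 5 fatty acid enzymes) had their highest level in the epithelial-like or goblet-like cells in both libraries, against 25.2% of 10469 genes with at least 50 UMIs. Which of these 2 epithelial classes was highest differed between the libraries. In the THC library 10 of the 25 sterol pathway genes were highest in epithelial-like and 5 in goblet-like cells. In the vehicle library 3 were highest in epithelial-like and 14 in goblet-like cells. The same counts per library were not made over all genes, so whether this difference is particular to these genes was not tested.

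**Figure D1:**
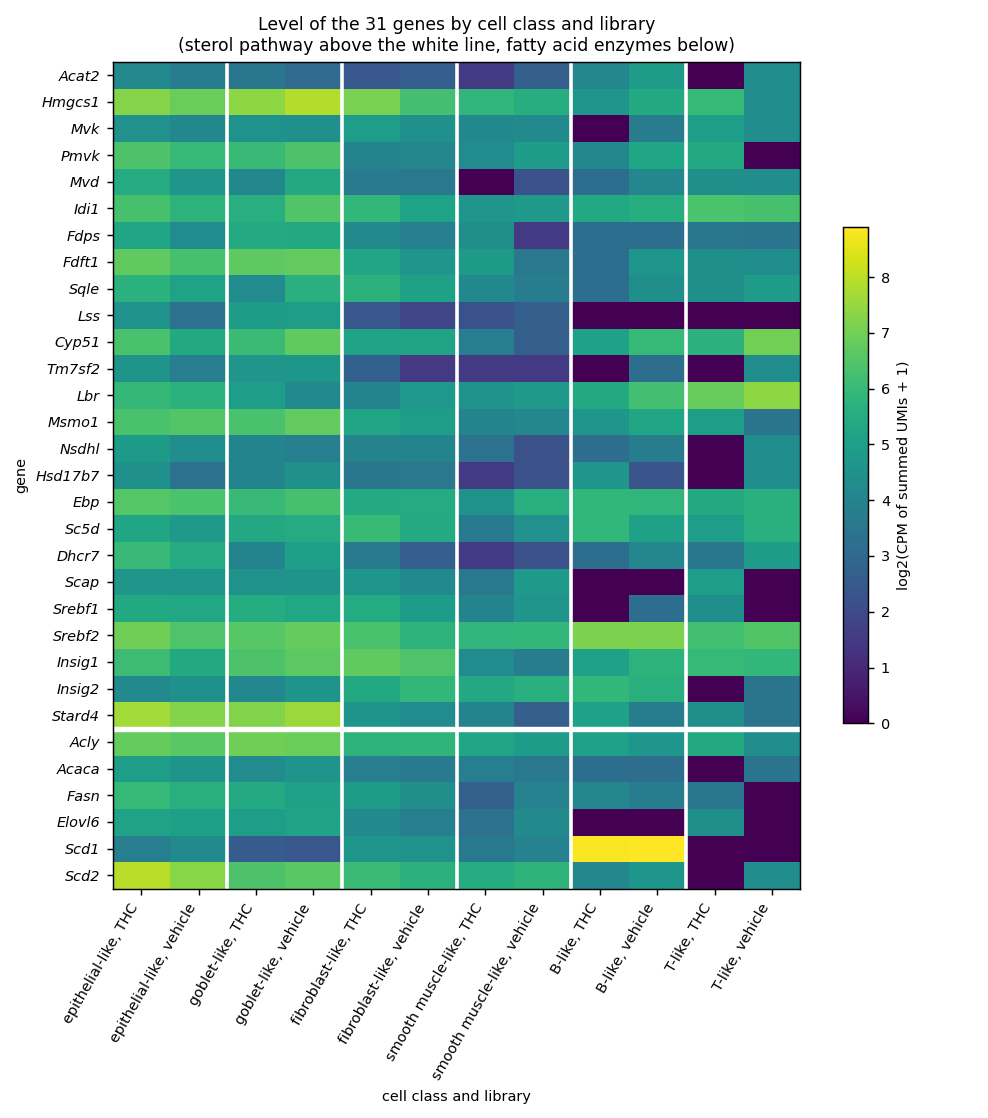
Level of each of the 31 genes (rows, sterol pathway above the white line and fatty acid enzymes below) in 6 cell classes and both libraries (columns), coloured as log2 of the CPM of summed UMIs plus 1. Hmgcs1, Stard4 and Scd2 are bright in the epithelial-like columns, and Scd1 is bright in the 2 B-like columns at 446 and 476 CPM.

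Some members had their place outside the epithelium. Scd1, a stearoyl-CoA desaturase, stood at 446 CPM in THC and 476 CPM in vehicle B-like cells, with 54 UMIs in 29 of 37 cells and 116 UMIs in 50 of 69 cells. Of the 6 larger classes the fibroblast-like cells came next, at 24.8 and 22.2 CPM, and the few Cajal-like cells (cells with markers of interstitial cells of Cajal, the pacemaker cells of gut muscle) stood at 90.9 and 94.6 CPM on 15 and 18 UMIs. T-like cells had a median of 3336 and 3140 UMIs per cell, against 3106 and 3133 in B-like cells. They had 0 Scd1 UMIs in 23 and 31 cells, with upper interval bounds of 37.9 and 35.9 CPM. Its neighbour in the family, Scd2, had the reverse pattern, with 245 and 160 CPM in epithelial-like and 16.5 and 24.6 CPM in B-like cells. Lbr, which encodes a nuclear envelope protein with sterol reductase activity, was highest in T-like cells in both libraries, at 113 and 165 CPM on 11 and 17 UMIs. Within the 6 larger classes Srebf2 was highest in B-like cells in both libraries, at 140 CPM (81.7 to 225) and 139 CPM (96.5 to 195). THC epithelial-like cells at 125 and vehicle goblet-like cells at 110 CPM followed, inside those intervals. The few dendritic-like cells held Srebf2 at 233 CPM on 16 UMIs in THC and 136 CPM on 23 UMIs in vehicle. The 4 THC innate lymphoid and NK-like cells held it at 162 CPM on 3 UMIs. The 13 THC and 16 vehicle Cajal-like cells held Elovl6 at 273 CPM (199 to 365, 45 UMIs) and 158 CPM (106 to 225, 30 UMIs), against at most 35.1 CPM in any of the 6 larger classes.

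In the epithelial-like cells the sterol pathway was higher in the THC library as a group. The sum of the 25 genes was 2676 UMIs in THC and 1889 UMIs in vehicle, a log2 ratio of 0.45 (0.36 to 0.53). All 25 passed the minimum of 20 UMIs over both libraries. Of them 23 were higher and 2, Msmo1 and Insig2, lower in THC, against 49.0% higher of 9354 genes measured in the class. The median log2 ratio was 0.48, against -0.01 over those 9354 genes. At least 1.5-fold higher were 8 of the 25, against 5.95% of all measured genes, and at least 1.5-fold lower 0 of the 25, against 9.3%. With the fatty acid enzymes included, 16 of 31 had an interval above 0, against 6.36% of all measured genes, and 0 had one below 0, against 6.02%. The genes were chosen with a higher level of a shorter such list in these cells known, so these shares are a description and no support. Median levels per cell moved in the same direction as the sums, 1502 CPM in THC and 1023 CPM in vehicle cells.

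The mevalonate steps were all higher in the THC library, 7 of 7. Hmgcs1, which makes HMG-CoA, had 261 UMIs in THC and 190 in vehicle epithelial-like cells, or 154 and 117 CPM, a log2 ratio of 0.40 (0.13 to 0.68). Mvd, which decarboxylates mevalonate diphosphate, had 73 and 39 UMIs (43.1 and 23.9 CPM), a ratio of 0.85 (0.27 to 1.45). Idi1, which isomerises the 5-carbon unit made by Mvd, had 131 and 86 UMIs, a ratio of 0.55 (0.15 to 0.96). Fdps, which joins these units into farnesyl diphosphate, was the highest of this group at 0.99 (0.34 to 1.67), on 62 and 30 UMIs. Pmvk, a kinase between mevalonate and Mvd, had 144 and 99 UMIs and a ratio of 0.48 (0.11 to 0.87), while Acat2 and Mvk were at 0.48 and 0.40 with intervals that included 0.

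The squalene steps were higher in the THC library as well, 3 of 3. Lss, which closes squalene epoxide into lanosterol, had 38 UMIs in THC and 15 in vehicle cells, 22.5 and 9.21 CPM, a ratio of 1.29 (0.39 to 2.25). That was the highest ratio of the 31 genes, on few molecules. Sqle, the epoxidase before it, had 86 and 55 UMIs and a ratio of 0.59 (0.08 to 1.10). Fdft1, which makes squalene, had 179 and 127 UMIs and a ratio of 0.44 (0.10 to 0.78).

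Of the 9 genes of the steps after lanosterol, 8 were higher and 1 lower in the THC library. Cyp51, the demethylase that acts on lanosterol, had 134 and 67 UMIs, 79.2 and 41.1 CPM, a ratio of 0.94 (0.51 to 1.39). Hsd17b7, a ketosteroid reductase, had 36 and 15 UMIs and a ratio of 1.21 (0.30 to 2.18). Tm7sf2, a sterol reductase, was at 0.84 (0.04 to 1.68) and Dhcr7, which reduces the last double bond of one branch, at 0.56 (0.12 to 1.01). Nsdhl, Sc5d, Lbr and Ebp lay between 0.17 and 0.50 with intervals that included 0. Msmo1, a sterol methyl oxidase, was at -0.18 (-0.52 to 0.17) with 136 UMIs in THC and 148 in vehicle cells. A single vehicle cell held 16.2% of the vehicle UMIs.

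The regulators split. Srebf2 had 212 UMIs in THC and 140 in vehicle epithelial-like cells, a ratio of 0.54 (0.23 to 0.86), and Insig1 had 114 and 68 UMIs, a ratio of 0.69 (0.24 to 1.14). Scap at 0.09 (-0.57 to 0.75), Srebf1 at 0.10 (-0.42 to 0.61) and Insig2 at -0.19 (-0.94 to 0.56) were not told apart from 0 at this depth. Their intervals also include the Srebf2 ratio of 0.54, and those of Srebf1 and Insig2 leave out the Insig1 ratio of 0.69. Differences between the regulators were not tested. Stard4, which carries cholesterol between membranes, had 345 and 245 UMIs and a ratio of 0.44 (0.20 to 0.68).

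The 6 fatty acid enzymes summed to 493 CPM in THC and 375 CPM in vehicle epithelial-like cells, a log2 ratio of 0.39 (0.24 to 0.55). The largest part of the sum was Scd2, a desaturase, with 415 and 260 UMIs and a ratio of 0.62 (0.39 to 0.85), the only one of the 6 with an interval above 0 and the only one at least 1.5-fold higher. Fasn at 0.38 (-0.06 to 0.83), Acaca at 0.37 (-0.27 to 1.01), Acly at 0.20 (-0.12 to 0.51) and Elovl6 at 0.10 (-0.47 to 0.68) were higher with intervals that included 0. Scd1 was at -0.45 (-1.32 to 0.40) on 22 and 29 UMIs.

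The class held 4 clusters, and the sterol pathway sum was higher in THC in each. The ratio was 0.42 (0.21 to 0.63) in the cluster led by Nlrp6 and the crypt gene Ascl2. It was 0.35 (0.20 to 0.49) in the one led by Slc6a14 and 0.34 (0.17 to 0.51) in the one led by cell cycle genes. The colonocyte cluster led by Fabp6 and Car1 was at 0.27 (0.08 to 0.47). The cluster led by Nlrp6 and Ascl2, where the pathway was lowest at 989 and 739 CPM, held 39 of 102 vehicle but 21 of 85 THC cells. Weighting the clusters alike in the 2 libraries gave a ratio of 0.34 for the class. Other measures moved with the library too. Epithelial-like cells had a median of 20083 UMIs in THC and 16141 in vehicle, and the 9 goblet markers summed to 5505 CPM in THC against 2744 CPM in vehicle cells, with 9 of 9 higher. The 5 enteroendocrine markers summed to 1319 and 2093 CPM, and the 8 smooth muscle markers had 30 UMIs in THC and 1576 in vehicle cells. Fibroblast markers had 1 and 130 UMIs, B cell markers 13 and 137, endothelial markers 49 and 15, and T cell markers 0 in both. Leaving out cells that held markers of other classes kept 74 THC and 87 vehicle cells, with a sterol pathway ratio of 0.45. Without the cell cycle cluster the ratio was 0.48. What part the depth and the marker lists, goblet and enteroendocrine among them, had in the ratio was otherwise not tested.

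**Figure D2:**
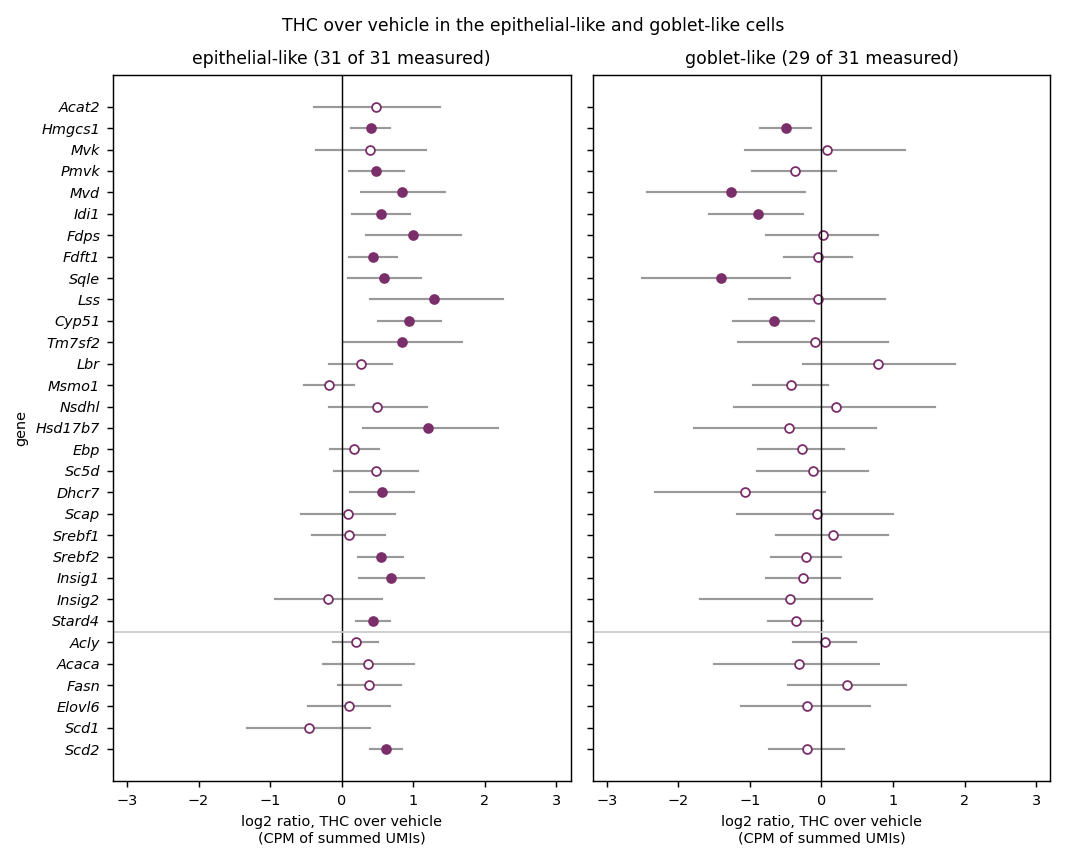
Log2 ratio of THC over vehicle (horizontal axis, CPM of summed UMIs) for each gene with at least 20 UMIs in the epithelial-like cells (left, 31 genes) and the goblet-like cells (right, 29 genes). Lines are 95% counting intervals and filled points have an interval that leaves out 0, 16 above 0 on the left and 5 below 0 on the right.

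The goblet-like cells, which make mucus, went the other way for the sterol pathway. The sum was 755 UMIs or 1278 CPM in 41 THC cells and 1482 UMIs or 1626 CPM in 70 vehicle cells, a log2 ratio of -0.35 (-0.48 to -0.22). Of 24 measured genes 5 were higher and 19 lower in THC, against 49.6% higher of all 6824 measured genes. The median was -0.27, against -0.0033 over those 6824 genes. At least 1.5-fold lower were 5 of the 24, against 9.38% of all measured genes, and 1, Lbr, was at least 1.5-fold higher, against 9.95%. Of 29 measured genes of both lists 5 had an interval below 0, against 3.47% of all, and 0 had one above 0, against 4.02%. The median per cell was 957 CPM in THC and 1219 CPM in vehicle cells.

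Those 5 genes, Hmgcs1, Mvd, Idi1, Sqle and Cyp51, were all among the 16 of 31 with an interval above 0 in the epithelial-like cells. The same overlap was not counted over all genes. With every cell thinned to the same number of UMIs, Hmgcs1 reversed in the epithelial-like (-0.57) and goblet-like cells (0.31). Cyp51 then reversed in the goblet-like cells (0.77), as it did with under 5% mitochondrial UMIs and new clusters. Mvd, Idi1 and Sqle kept their direction in both classes under every setting that gave a value. Hmgcs1 had 98 UMIs in THC and 214 in vehicle goblet-like cells, 166 and 235 CPM, a ratio of -0.50 (-0.86 to -0.15), and 1 cell of each library held 16.3% and 17.8% of them. Sqle had 11 and 45 UMIs, 18.6 and 49.4 CPM, the lowest ratio at -1.41 (-2.51 to -0.43). Mvd had 10 and 37 UMIs and a ratio of -1.26 (-2.44 to -0.23). All 3 had a higher level in vehicle goblet-like than in vehicle epithelial-like cells, and Mvd and Sqle had a lower one in THC goblet-like than in THC epithelial-like cells. Idi1 was at -0.89 (-1.57 to -0.25) and Cyp51 at -0.66 (-1.24 to -0.11). Dhcr7 was also low at -1.06 on 9 and 29 UMIs, with an interval that just included 0. Hsd17b7 and Insig2 at -0.45, Msmo1 at -0.42, Pmvk at -0.38, Stard4 at -0.36, Ebp at -0.28, Insig1 at -0.25, Srebf2 at -0.21 and Sc5d at -0.11 were lower too, with intervals that included 0. Nearest 0 were Fdps 0.02, Lss -0.04, Fdft1 -0.04, Scap -0.07, Mvk 0.08 and Tm7sf2 -0.09. Above them were Srebf1 at 0.16 (-0.63 to 0.92), Nsdhl at 0.21 (-1.22 to 1.58) and, highest, Lbr at 0.79 (-0.26 to 1.86).

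The fatty acid enzymes of the goblet-like cells were near equal in the 2 libraries. They summed to 305 CPM in THC and 313 CPM in vehicle goblet-like cells, a ratio of -0.04 (-0.32 to 0.24). Of 5 measured enzymes 2 were higher and 3 lower. Scd2 was at -0.21 and Fasn at 0.36, both with intervals that included 0.

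Both goblet-like clusters were below 0 for the sterol pathway, at -0.38 (-0.53 to -0.24) in the one led by Retnlb and Clca1 and at -0.25 (-0.53 to 0.02) in the one with Klk1 and Ccl6. Depth and the markers of the class were close in the 2 libraries, with a median of 12807 and 12229.5 UMIs per cell, goblet markers at 65175 and 64420 CPM and epithelial markers at 12372 and 11746 CPM. The plasma cell markers were at 652 and 776 CPM (log2 ratio -0.25, -0.43 to -0.07) and the enteroendocrine markers at 79.5 and 112 CPM (-0.49, -1.02 to 0.02), and their part in the sterol pathway ratio was not tested. Markers of B cells were at 0 in both libraries. The direction was less steady than in the epithelial-like cells when cells were chosen differently. With a limit of 5% mitochondrial UMIs and new clusters the ratio was 0.04 in 28 THC and 39 vehicle cells. No cluster took the epithelial-like name there, so the goblet-like clusters may hold epithelial-like cells. With the same limit and the class of each cell kept, the goblet-like ratio was -0.60 in 10 and 16 cells. The epithelial-like class then kept 19 THC and 21 vehicle cells. The 0.04 is therefore not a value of the same cells, and where the epithelial-like cells went was not tested. A limit of 20% gave -0.10. A minimum of 2500 UMIs gave -0.16 with new clusters, in 48 THC and 76 vehicle cells. With the classes kept that minimum gave -0.35, in 40 and 69 cells. The difference between the 2 classes was itself not tested, since each rests on the same pair of libraries.

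**Figure D3:**
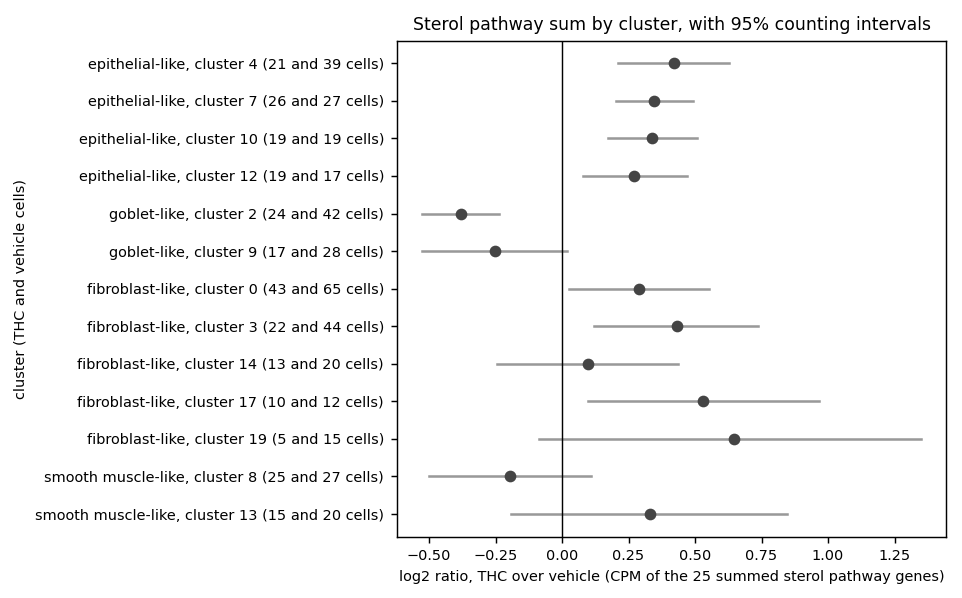
Log2 ratio of THC over vehicle of the summed sterol pathway CPM (horizontal axis) in each cluster of the 4 main classes, with the number of THC and vehicle cells in brackets and lines for 95% counting intervals. All 4 epithelial-like clusters lie above 0, between 0.27 and 0.42, and both goblet-like clusters below, at -0.38 and -0.25.

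Fibroblast-like cells, the collagen-producing cells of the lamina propria, had a higher sterol pathway sum in THC. The sum was 628 UMIs or 917 CPM in THC and 802 UMIs or 711 CPM in vehicle cells, a log2 ratio of 0.37 (0.21 to 0.52). Of 20 measured sterol pathway genes 14 were higher and 6 lower, against 52.1% higher of all 7888 measured genes. The median was 0.36, against 0.02 over those 7888 genes. At least 1.5-fold higher were 5 of the 20, against 8.76% of all measured genes, and 1, Lbr, was at least 1.5-fold lower, against 9.69%. Hmgcs1 had 94 and 85 UMIs, 137 and 75.4 CPM, a ratio of 0.87 (0.43 to 1.31). Idi1 had 40 UMIs in THC and 39 in vehicle cells, a ratio of 0.76 (0.08 to 1.43), and Srebf2 had 55 and 59, a ratio of 0.62 (0.06 to 1.17). These were the 3 of 26 measured genes with an interval above 0, against 5.27% of all measured genes, and 0 of 26 had one below 0, against 4.12%. Here too the genes were chosen with an earlier result in these cells known, so the shares are a description.

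In these cells 5 of 6 measured mevalonate genes and both measured squalene genes, Sqle at 0.64 and Fdft1 at 0.56, were higher in THC, and Pmvk lower at -0.13 (-1.41 to 1.06) on 10 and 18 UMIs. Of the steps after lanosterol 2 of 6 were higher, Sc5d at 0.59 and Msmo1 at 0.23, and the other four lower, among them Cyp51 at -0.08 (-0.89 to 0.70). Cyp51 stood at 33.6 CPM in THC and 35.5 CPM in vehicle cells, where the epithelial-like cells differed by 1.92-fold. Insig1 stood at 104 and 86.9 CPM with a ratio of 0.26 (-0.21 to 0.71), Insig2 was at -0.52 (-1.21 to 0.14) and Lbr lowest at -0.82 (-2.02 to 0.26). The fatty acid enzymes summed to 203 CPM in THC and 175 CPM in vehicle cells, a ratio of 0.22 (-0.11 to 0.54), with 5 of 6 higher and none at least 1.5-fold so. All 5 fibroblast-like clusters had a sterol pathway ratio above 0, between 0.10 and 0.65, with intervals that included 0 in 2 of them. Median depth was 7696 UMIs in THC and 7142 in vehicle cells. The 8 smooth muscle markers summed to 1468 CPM in THC and 825 CPM in vehicle fibroblast-like cells, 8 of 8 higher, the 8 fibroblast markers to 20634 and 22073 CPM, and epithelial markers to 16.1 and 74.5 CPM. Glia markers stood at 74.5 and 24.8 CPM, 5 of 5 higher, pericyte markers at 178 and 131 CPM, 4 of 5 higher, and plasma cell markers at 299 and 396 CPM, 1 of 5 higher. Their part in the ratio was not tested. Clustering each library on its own gave 0.17 in place of 0.37.

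Smooth muscle-like cells had the lowest sterol pathway sum of the 4 main classes, near equal in the 2 libraries. The sum was 239 UMIs or 442 CPM in THC and 257 UMIs or 468 CPM in vehicle cells, a ratio of -0.08 (-0.34 to 0.18). Only 10 sterol pathway genes were measured, 2 higher and 8 lower in THC. Over all 5824 measured genes of the class the median was itself -0.09, and 42.1% were higher. Of the 10 sterol pathway genes 1, Fdft1, was at least 1.5-fold higher, against 6.99% of all measured genes. At least 1.5-fold lower were 4 of the 10, against 14.6%. Ebp, a sterol isomerase, had 12 UMIs in THC and 26 in vehicle cells, a ratio of -1.09 (-2.21 to -0.06). It was the single gene of 12 measured in both lists with an interval below 0, against 6.06% of all genes, and 0 of 12 had one above 0, against 3.23%. Scap was lower still at -1.30 on 6 and 15 UMIs, and Fdft1 was at 1.34 on 15 and 6 UMIs, both with intervals that included 0. Fatty acid enzymes were at 120 and 142 CPM, a ratio of -0.24 (-0.74 to 0.25), with Acly at 0.34 (-0.68 to 1.39) and Scd2 at -0.30 (-1.14 to 0.52) the only 2 measured. Hmgcs1 was at 0.33 (-0.47 to 1.15), Idi1 at -0.18, Srebf2 at -0.02 and Srebf1 at -0.68 (-2.15 to 0.70). The 8 smooth muscle markers themselves were higher in THC, 8 of 8, at 127757 and 100074 CPM, as were 4 of 5 pericyte markers at 2167 and 1606 CPM, while plasma cell markers stood at 115 CPM in THC and 779 CPM in vehicle cells. The part of these in the ratios was not tested. TMM scaling, which sets libraries level over most genes, moved the median of all genes in this class to 0.02.

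**Figure D4:**
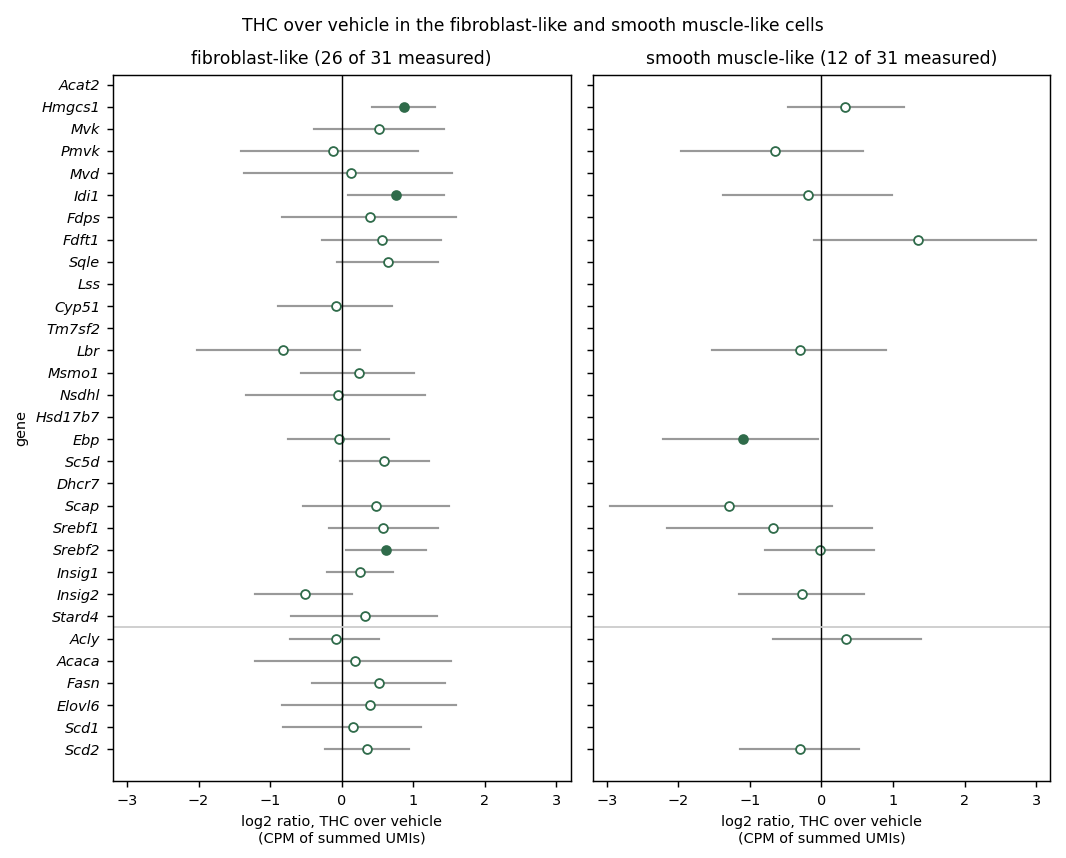
Log2 ratio of THC over vehicle (horizontal axis, CPM of summed UMIs) for each gene with at least 20 UMIs in the fibroblast-like cells (left, 26 genes) and the smooth muscle-like cells (right, 12 genes), with 95% counting intervals and filled points where the interval leaves out 0. Hmgcs1, Idi1 and Srebf2 are filled above 0 on the left and Ebp below 0 on the right.

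The smaller classes are given mainly as sums. The Cajal-like cells had sterol pathway levels of 976 CPM in THC and 736 CPM in vehicle, a ratio of 0.41 (0.07 to 0.74), and fatty acid enzymes at 661 and 463 CPM, a ratio of 0.51 (0.10 to 0.94). B-like cells were at -0.29 (-0.69 to 0.09) for the sterol pathway and -0.07 (-0.53 to 0.37) for the fatty acid enzymes, T-like cells at -0.17 (-0.63 to 0.29) and macrophage-like cells at 0.00 (-0.39 to 0.38) for the sterol pathway. Single members measured there were Scd1 at -0.09 (-0.59 to 0.38), Srebf2 and Ebp at 0.01 and Lbr at -0.84 (-2.62 to 0.64) in B-like cells and Lbr at -0.55 (-1.79 to 0.63) in T-like cells, 0 of the 5 with an interval that left out 0. Over all cells the sterol pathway was at 1117 CPM in THC and 958 CPM in vehicle, a ratio of 0.22 (0.17 to 0.28). That figure mixes classes with ratios of both signs and different shares of cells in each library.

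**Figure D5:**
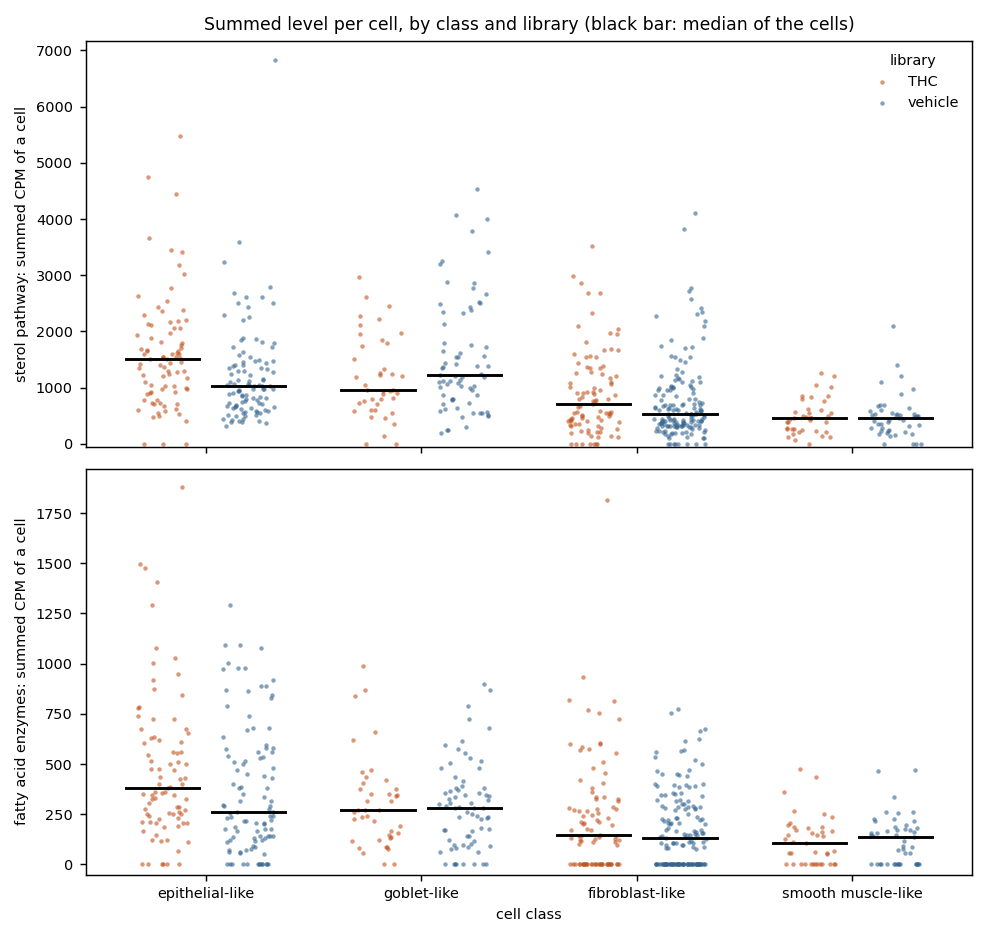
Summed CPM of each cell (points) for the 25 sterol pathway genes (top) and the 6 fatty acid enzymes (bottom) by class, with THC in orange, vehicle in blue and a black bar at the median of the cells. For the sterol pathway the bars stand at 1502 and 1023 CPM in epithelial-like, 957 and 1219 CPM in goblet-like and 705 and 529 CPM in fibroblast-like cells, and cells of both libraries overlap in every class.

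Related lipid genes, 51 genes in 6 lists, had list medians between -0.20 and 0.12 in the epithelial-like cells, below the 0.48 of the sterol pathway. Of the genes of sterol efflux and its regulators 5 of 9 were measured, 2 higher and 3 lower in THC, with a median of -0.06. Storage and trafficking genes had 8 of 9 measured, 5 higher and 3 lower, with a median of 0.02, and other fatty acid genes 13 of 15 measured, 7 higher and 6 lower, with a median of 0.06. For fatty acid oxidation 7 of 9 were higher and 2 lower, with a median of 0.10, and for the other routes to the sterol sensor 4 of 6 were higher and 2 lower, with a median of 0.12. The branch enzymes had 1 of 3 higher and a median of -0.20. The median of all measured genes in the class was -0.01, and 49.0% of them were higher. Of 44 measured genes in the 6 lists 1 was at least 1.5-fold higher, against 5.95% of all measured genes. It was Fads2, a fatty acid desaturase, at 0.67 (0.29 to 1.07) on 151 and 91 UMIs. Cpt1a, which admits fatty acids to mitochondria, was at 0.37 (0.01 to 0.72) and Acsl3, which activates fatty acids, at 0.29 (0.06 to 0.52). Apoe, an apolipoprotein, was at -1.64 (-2.63 to -0.74) on 14 and 42 UMIs, of which 1 vehicle cell held 64.3%. Apoe and Acacb, an acetyl-CoA carboxylase with 8 and 12 UMIs, were the 2 of 44 at least 1.5-fold lower, against 9.3% of all measured genes, and Acacb was named after its values were seen.

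In the goblet-like cells Npc2, which moves cholesterol out of lysosomes, was at 0.54 (0.21 to 0.86), higher in THC where the sterol pathway was lower. In the fibroblast-like cells Plin2, which coats lipid droplets, was at 0.88 (0.42 to 1.35), Fads1 at 0.75 (0.13 to 1.37) and Apoe at 0.39 (0.12 to 0.66). In the smooth muscle-like cells Apoe was at -1.44 (-2.53 to -0.45) and Acadm, of fatty acid oxidation, at -0.98 (-1.70 to -0.29).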

How the data were processed

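Deposited values were UMI counts per gene and barcode, made by the authors with Cell Ranger 3.0.2 per the file headers. The submitters' processing notes list bcl2fastq and Seurat too, with no version. The authors' genome build was not given in the sources read. The deposited barcode and gene tables hold names only. The THC file totals 7080022 and the vehicle file 7786409 UMIs. Cells with at least 1000 UMIs, 200 genes and under 10% mitochondrial UMIs were kept, and 1 doublet per library, marked by scrublet in scanpy 1.11.5 at 0.8% per 1000 cells, was removed. The 2 libraries were clustered together (2800 variable genes without 82 lipid genes, 30 components, 15 neighbours, Leiden resolution 1). A cluster was named from at least 3 markers, each in at least 20% of its cells and at least 1 log2 unit over the rest. The 20% was set after seeing that a lower limit named a colonocyte cluster enteroendocrine. Of 25 clusters 1, with 3 THC and 23 vehicle cells, stayed unnamed.

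Counts were summed per class and library. Intervals are exact Poisson for levels and exact conditional binomial for ratios, at 95%, and were tested on simulated data. A gene counted as measured with at least 20 UMIs over both libraries. Every member is accounted for. Members are named with values where the interval left out 0 or the ratio was among the 5 highest or 3 lowest of a class, and related genes where the bound was among the 3 farthest from 0, except for 1 that is not reported here. Some further members are named for contrast, chosen after their values were seen. Members and lists were chosen with earlier results of these data known. With 1 library per group no test was run. TMM scaling used edgeR 4.0.16.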

Additional observations from a re-analysis of the deposited data

Results flagged for a closer look

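The sterol pathway differed in direction between cell classes under the same contrast, and this difference was not tested. The summed log2 ratio of THC over vehicle was 0.45 in the epithelial-like and 0.37 in the fibroblast-like cells and -0.35 in the goblet-like cells. Of single genes, Hmgcs1 was at 0.40 in the epithelial-like, 0.87 in the fibroblast-like and -0.50 in the goblet-like cells. Idi1 was at 0.55, 0.76 and -0.89 in the same order. Mvd was at 0.85 in the epithelial-like and -1.26 in the goblet-like cells, Sqle at 0.59 and -1.41, and Cyp51 at 0.94 and -0.66. Each of these values has a counting interval that leaves out 0, and each rests on the same 2 libraries.

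Signal of the members was also present in barcodes that were not analysed as cells. The 105817 THC barcodes with 1 to 100 UMIs held the sterol pathway at 1004 CPM (936 to 1075, 821 UMIs) and the fatty acid enzymes at 214 CPM (183 to 248, 175 UMIs). The vehicle file lists no such barcodes, so that the same level in that library was not analysed here. The part of this RNA in the levels of cells was not tested.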

How the results depend on the processing

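Each result was recomputed under 15 settings planned and 4 added after seeing the data. The sterol pathway ratio of the epithelial-like cells stayed above 0 in all 16 alternatives that gave one, from 0.30 to 0.72, and that of the fibroblast-like cells in all 15, from 0.17 to 0.39. With under 5% mitochondrial UMIs no cluster took the epithelial-like name, so that this setting gave no value there. The goblet-like cells of that setting may include epithelial-like cells, which was not tested. In the epithelial-like cells the ratio was 0.30 with under 20% mitochondrial UMIs, 0.56 with cells thinned to 1000 UMIs, 0.34 with the same mix of clusters and 0.72 with under 5% and class names kept. In the goblet-like cells it was -0.16 with at least 2500 UMIs, 0.041 (reversed) with under 5%, -0.10 with under 20% and -0.60 with under 5% and names kept, and the fatty acid enzymes were at -0.41 when thinned. Separate clustering of the libraries gave 0.17 in the fibroblast-like cells. In the smooth muscle-like cells the sterol pathway was at 0.57 with under 5%, 0.42 when thinned and 0.37 with under 5% and names kept, and the fatty acid enzymes at 1.45 and 0.65 under the 2 limits of 5%. Of single genes, thinning reversed Hmgcs1 (-0.57), Hsd17b7 (-0.74) and Srebf2 (-0.037) in the epithelial-like and Hmgcs1 (0.31) and Cyp51 (0.77) in the goblet-like cells, where few molecules are left per gene. Under 5% mitochondrial UMIs reversed Cyp51 in the goblet-like (0.37) and Ebp in the smooth muscle-like cells (0.17), and with names kept Fdps in the epithelial-like cells (-0.11). The cause of these changes was not tested. No paired analysis was possible because each group had 1 library.

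With 1 library per group, mouse, preparation and treatment cannot be told apart. Differences below the counting intervals were not detectable at this depth. In the smooth muscle-like cells 19 of 31 genes fell short of the minimum of 20 UMIs and were not measured. The cause of this was not tested.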
